A study of Mus musculus with 16 samples.

Results

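The genes described here build the MHC class I antigen presentation pathway of CD4+ T cells. They are B2m, H2-K1, H2-D1, H2-T23, Tap1, Tap2, Tapbp, Nlrc5 and Erap1, and they were picked by symbol as genes of 1 pathway. All 9 were measured in both subsets, as 9 of 11171 genes in Tcon, 9 of 11067 in Treg and 9 of the 10774 genes shared by both tables. All 9 stood in the deposited tables, to which no further filter on low values was applied.

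RNA-seq was carried out on CD4+ T cells of FOXP3-IRES-GFP reporter mice (strain B6.Cg-Foxp3tm2Tch/J, genotype WT), taken from spleen and lymph node. For 14 days the animals were given either vehicle or venetoclax at 50 mg/kg, a small molecule that blocks BCL-2, a protein that keeps lymphocytes alive. Conventional T cells (CD4+ FOXP3-, Tcon) and regulatory T cells (CD4+ FOXP3+, Treg) gave 4 libraries per treatment, 16 in all. The 4 groups were thus Tcon on vehicle, Tcon on venetoclax, Treg on vehicle and Treg on venetoclax, and all of them carried the reporter allele. The labels call the libraries biological replicates but give neither the age nor the sex of the mice, nor whether animals were pooled, so the p-values measure the spread between these libraries.

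Class I molecules display short peptides from inside the cell to CD8+ T cells and to natural killer cell receptors, and nearly all nucleated cells carry them. A heavy chain pairs with the light chain beta-2 microglobulin in the endoplasmic reticulum, receives a peptide that the TAP transporter has brought in and an aminopeptidase has trimmed, and then travels to the cell surface. In lymphocytes the transactivator NLRC5 drives transcription of several of these genes together, and interferons raise most of them.

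Each table had been scaled by 1 size factor per library, so values are normalized counts. Summed over the 11171 genes measured in Tcon, a library held 22982210 to 24960570 reads. Over the 11067 genes measured in Treg it held 21335006 to 25027038. The 2 tables were normalized separately. Foxp3 lay between 648 and 761 normalized counts in vehicle Tcon and between 18016 and 21126 in vehicle Treg. Replicate 3 of both Tcon groups stood apart from the other Tcon libraries on the second principal component (scores of 29.7 and 24.6, the other 6 between -22.7 and -2.44). Y-linked reads (Ddx3y and Kdm5d) summed to more than 1 normalized count in 1 of 4 vehicle and 3 of 4 venetoclax libraries of each subset. In venetoclax replicates 1 and 3 their level was between those of the other libraries. Results on the 9 genes that change without these libraries, or once the Y-linked level is a covariate, are given with both values.

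For 8 of the 9 genes the venetoclax and vehicle libraries overlapped in both subsets, and no change passed the test. Nlrc5, the transactivator, was the exception: it was called higher in Treg, by a log2 change of 0.23. In Tcon its point estimate was 0.26, without a call. In Tcon 0 of the 9 passed limma's test at a Benjamini-Hochberg adjusted p under 0.05, against 6.91% of all Tcon genes (3.92% higher and 2.99% lower). At an unadjusted p under 0.05 the count in Tcon was also 0, and neither edgeR nor DESeq2 called any of the 9. In Treg 1 of the 9 passed, against 19.6% of all Treg genes (10.7% higher and 8.81% lower). The median log2 change of the 9 was 0.02 in Tcon and 0.04 in Treg, beside a median of 0.00 over all genes in each table.

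**Figure D1:**
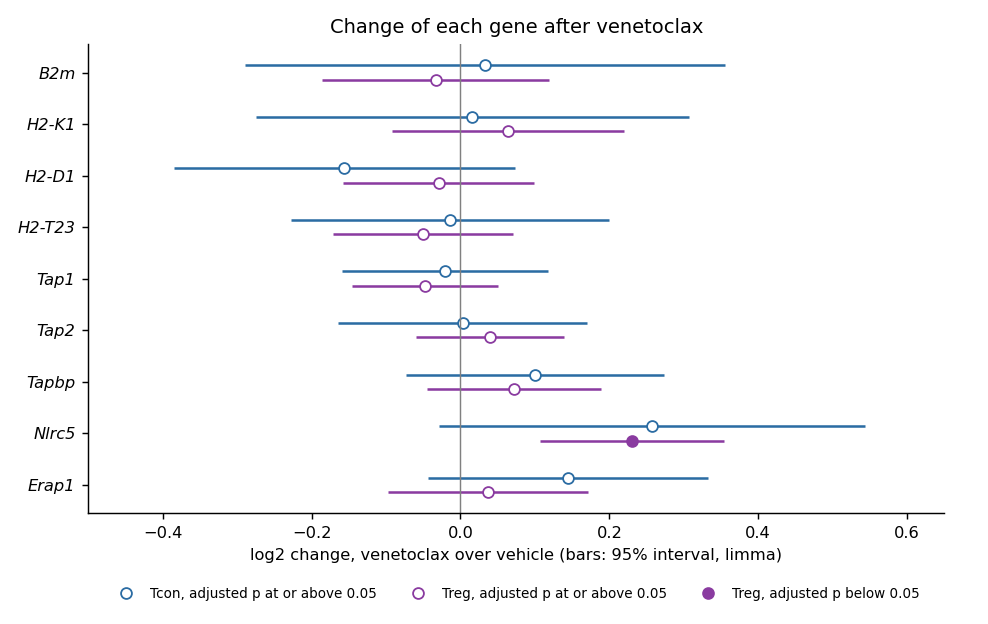
Log2 change of venetoclax over vehicle for each of the 9 genes (x axis), with 95% intervals from limma, in Tcon (blue) and Treg (purple). The filled point is Nlrc5 in Treg, with an interval of 0.11 to 0.35, and every other interval includes 0.

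The classical heavy chains H2-K1 and H2-D1 and the non-classical heavy chain H2-T23 (Qa-1, a ligand of the CD94/NKG2A receptor) form the peptide-binding part of the complex. All 3 lie in the major histocompatibility complex on chromosome 17 (positions from RefSeq on GRCm38.p6, the assembly behind mm10). H2-K1 (Entrez 14972) spans 33996012 to 34000619, H2-D1 (Entrez 14964) 35263094 to 35267497, and H2-T23 (Entrez 15040) 36029977 to 36032701. B2m (Entrez 12010), the light chain, lies on chromosome 2 from 122147687 to 122153082.

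The promoters of B2m, H2-K1 and H2-D1 are shown because the same pair of motifs stood at the same spacing in all 3. TGACG is the core of the X2 or CRE element, and ATTGG is CCAAT, the core of the Y box bound by NF-Y, read on the other strand. The pair does not overlap, and the first bases of the 2 motifs lie 25 bases apart. Each line gives 30 bases upstream of the start site in the RefSeq promoter table (GRCm38.p6), 5′ to 3′ on the strand of the gene, with the 2 motifs in capitals. B2m is at chr2:122147609-122147638 on the plus strand, H2-K1 at chr17:34000359-34000388 on the minus strand and H2-D1 at chr17:35262993-35263022 on the plus strand.
B2m: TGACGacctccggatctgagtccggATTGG
H2-K1: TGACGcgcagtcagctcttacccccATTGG
H2-D1: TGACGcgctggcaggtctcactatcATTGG

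The start site lies 78 bases after the first base of TGACG in B2m, 55 in H2-K1 (from the second of its start sites in the table) and 101 in H2-D1. The H2-K1 stretch lies upstream of both of its start sites in the table but inside the RefSeq span of the gene, which reaches 34000619. The H2-D1 stretch lies in a non-coding exon part of a longer transcript in GENCODE M21. Over the 32851 promoters of the RefSeq table, 30 held this pair at this spacing on either strand, or 0.0913%. The search covered the 250 bases before each start. They belonged to 26 genes, among them the class I heavy chain gene H2-M3. The spacing was chosen after the sequences were seen. Single motifs were common: CCAAT on either strand was in 33.8% of promoters and TGACG in 17.8%. Of the 9 genes, 7 had a promoter in the table, all but Nlrc5 and Tap2. CCAAT was found in all of these 7 but Erap1, and TGACG in B2m, H2-K1, H2-D1 and Tap1.

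The promoter of H2-T23 is shown for another motif, the core of the interferon-stimulated response element (TTTC, a pair of any bases, TTTC), which 2.98% of promoters held. It was found here and, on the other strand, in B2m. The stretch is chr17:36032806-36032835 on the minus strand, with the motif in capitals, starting 124 bases before the start site. It too lies in a non-coding exon part of a longer transcript in GENCODE M21.
H2-T23: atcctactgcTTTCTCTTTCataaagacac

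These motifs are letter matches in a fixed window and say nothing of binding.

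H2-K1 did not move with the drug in Tcon beyond its spread. In Tcon it was at 86381, 84309, 108055 and 91247 normalized counts in the vehicle libraries (92498 ± 10771, SD, n = 4) and at 89233, 91799, 103259.7 and 88765 in the venetoclax libraries (93264 ± 6796). Replicate 3 was the highest library of both groups, and the groups overlapped. The log2 change was 0.02 (95% interval -0.27 to 0.31, limma adjusted p = 0.961).

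In Treg H2-K1 was at 116269, 116611, 114262 and 114803 in the vehicle libraries (115486 ± 1132) and at 119993, 124084, 123179 and 115694 with venetoclax (120737 ± 3793). Of the venetoclax libraries, 3 lay above all vehicle libraries, and replicate 4 lay among them. The log2 change of 0.06 (interval -0.09 to 0.22) did not pass limma's test (adjusted p = 0.576).

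H2-D1 had the most negative point estimate of the 9 genes in Tcon. Its vehicle libraries were at 45813, 44017, 53968 and 46557 (47589 ± 4384) and its venetoclax libraries at 41564, 41647, 46284 and 41046 (42635 ± 2447). Venetoclax replicates 1, 2 and 4 lay below every vehicle library, and replicate 3 was inside the vehicle range. The log2 change was -0.16 (interval -0.38 to 0.07, limma adjusted p = 0.419).

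In Treg the 4 vehicle libraries of H2-D1 were at 57404, 58987, 54574 and 56938 (56976 ± 1826) and those with venetoclax at 55336, 56791, 55467 and 55687 (55820.4 ± 663). All 4 venetoclax values lay inside the vehicle range. The log2 change was -0.03 (interval -0.16 to 0.10, limma adjusted p = 0.772).

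Within a library, the normalized count of H2-K1 was 1.94 ± 0.0511 times that of H2-D1 in vehicle Tcon and 2.19 ± 0.0385 times in venetoclax Tcon (SD, n = 4 each). The vehicle ratios were 1.89, 1.92, 2.00 and 1.96 and the venetoclax ratios 2.15, 2.20, 2.23 and 2.16. Every venetoclax library was thus above every vehicle library, replicate 3 included. The 9 genes make 36 such pairs, and this was the only one in Tcon whose groups did not overlap, a smaller share than the 16.4% of all pairs of Tcon genes. In Treg the same ratio was 2.03 ± 0.0486 on vehicle and 2.16 ± 0.0610 on venetoclax, with overlapping libraries. Other pairs did not overlap in Treg, 6 of the 36, against 22.3% of all pairs of Treg genes. The ratio was chosen after its values were seen, so no test is given, and the part of reads that fit both genes was not tested.

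Reads of these heavy chains cannot always be assigned to 1 gene. The coding sequences of H2-K1 and H2-D1 (GENCODE M21) were 91.5% identical, and H2-T23 was 82.2% identical to H2-K1 and 81.1% to H2-D1. Of all 50-base windows of the coding sequence, 12.9% of those of H2-K1, 24.2% of H2-D1 and 29.6% of H2-T23 also occurred in another gene. With 100-base windows the shares were 0% for H2-K1, 9.42% for H2-D1 and 6.28% for H2-T23. The longest run shared by H2-K1 and H2-D1 is shown because a read inside it fits both genes. It covers 91 bases, coding positions 738 to 828 of H2-K1 and 747 to 837 of H2-D1.
H2-K1 and H2-D1: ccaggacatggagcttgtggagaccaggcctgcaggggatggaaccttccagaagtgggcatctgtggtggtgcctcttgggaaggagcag

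The sources used here do not say how such reads were counted, so the split between these genes is uncertain. B2m, Nlrc5 and Erap1 shared no 50-base coding window with another gene.

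H2-T23 was close to equal on vehicle and venetoclax. In Tcon it was at 10975, 8816, 11389 and 10415 on vehicle and at 10349, 9157, 11172 and 10414 on venetoclax, and replicate 2 was the lowest library of both groups. Its log2 change in Tcon was -0.01 (interval -0.23 to 0.20, limma adjusted p = 0.953). In Treg the vehicle libraries were at 14593, 12465, 13886 and 13531 and the venetoclax libraries at 13243, 12407, 13308 and 13572. Replicate 2 was again the lowest of each group, and the log2 change was -0.05 (interval -0.17 to 0.07, limma adjusted p = 0.564).

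B2m, without which heavy chains do not reach the surface stably, had the widest spread of the 9 genes in vehicle Tcon. The vehicle Tcon libraries were at 52295, 46234, 69430.0 and 46833 (53698 ± 10837) and the venetoclax Tcon libraries at 53134, 48470.5, 60269.5 and 55522 (54349 ± 4915). Replicate 3 was the highest of both groups, and the log2 change was 0.03 (interval -0.29 to 0.36, limma adjusted p = 0.928). In Treg the spread was smaller, with vehicle libraries at 72782, 62643, 70888 and 65628 and venetoclax libraries at 67731, 63968, 64524 and 69212. The log2 change in Treg was -0.03 (interval -0.19 to 0.12, limma adjusted p = 0.781), and the groups overlapped.

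**Figure D2:**
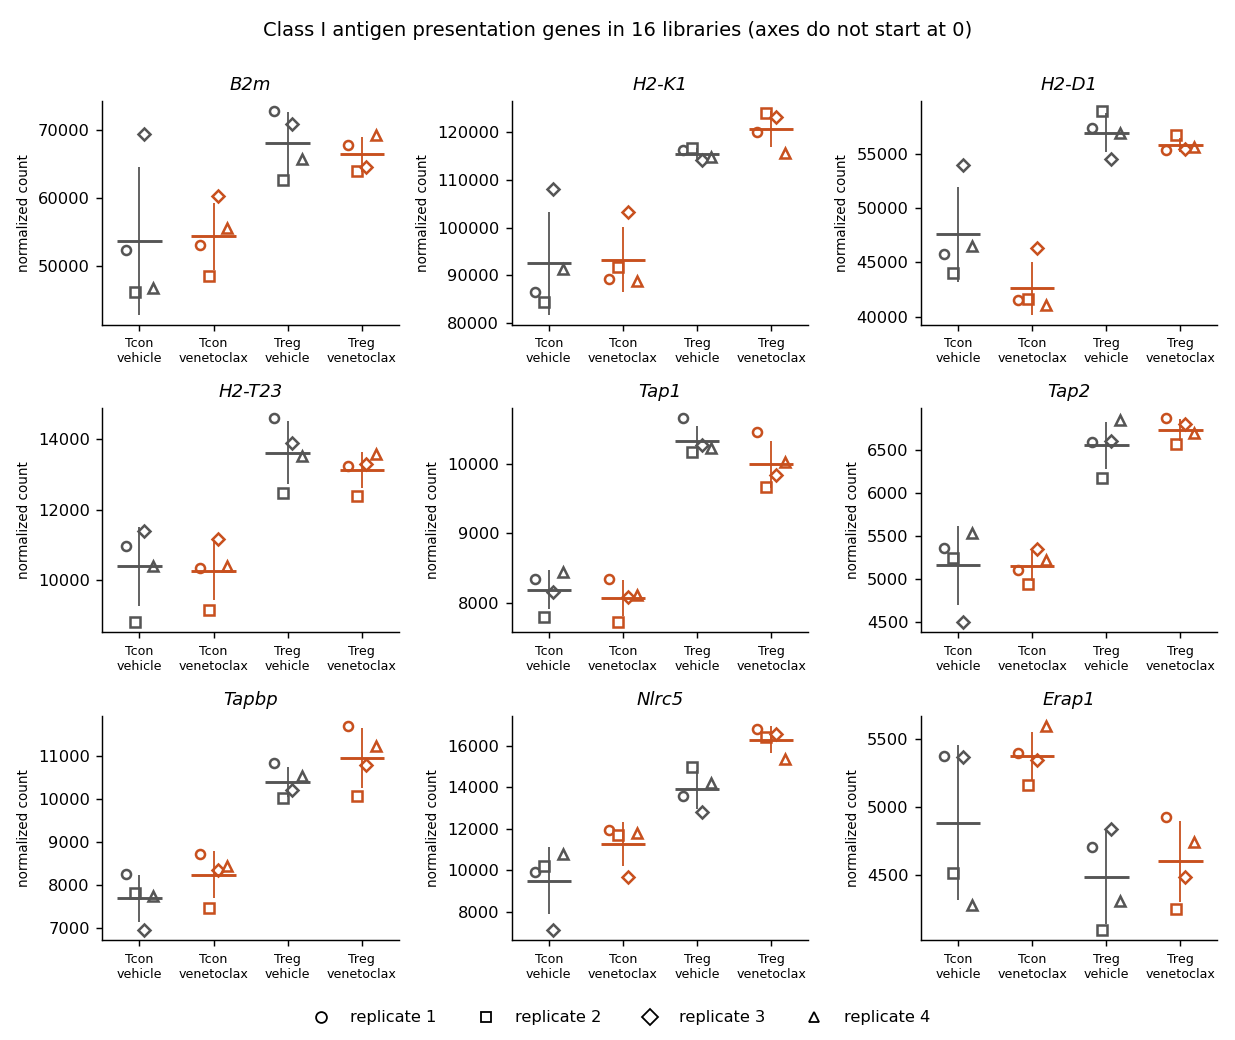
Normalized counts of the 9 genes in each of the 16 libraries by group, with marker shape for the replicate number, horizontal lines for the mean and vertical lines for 1 SD. For Nlrc5 in Treg all 4 venetoclax libraries (15341 to 16819) lie above all 4 vehicle libraries (12809 to 14975).

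Tap1 and Tap2 encode the subunits of the peptide transporter, and Tapbp encodes tapasin, which holds the heavy chain at the transporter until a peptide fits. These 3 genes also lie on chromosome 17, Tap1 (Entrez 21354) at 34187556 to 34197225, Tap2 (Entrez 21355) at 34204479 to 34216321 and Tapbp (Entrez 21356) at 33919478 to 33929290. Neither subset showed a change in any of them beyond the spread of the libraries.

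Tap1 was the gene with the least spread in Tcon, at 8339, 7797, 8155 and 8437 on vehicle and 8339, 7715, 8084 and 8116 on venetoclax. Its log2 change was -0.02 in Tcon (interval -0.16 to 0.12, limma adjusted p = 0.892). In Treg it was at 10659.8, 10169, 10274 and 10237 on vehicle and 10458, 9668, 9841 and 10028 on venetoclax. In Treg 3 of 4 venetoclax libraries lay below all vehicle libraries, replicate 1 did not, and the log2 change was -0.05 (interval -0.15 to 0.05, limma adjusted p = 0.495).

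Tap2 was at 5355, 5246, 4497 and 5529 in vehicle Tcon and 5104, 4939, 5351 and 5220.2 in venetoclax Tcon, with replicate 3 as the lowest vehicle library. Its log2 change was 0.00 in Tcon (interval -0.16 to 0.17, limma adjusted p = 0.990). In Treg Tap2 was at 6585, 6171, 6600.2 and 6842 on vehicle and 6864, 6562, 6800.2 and 6692 on venetoclax, and the log2 change was 0.04 (interval -0.06 to 0.14, limma adjusted p = 0.582). Exons of genes on the opposite strand covered 19.3% of the Tap2 exons, and whether the counting used strand is not given.

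Tapbp was at 8261, 7812, 6957 and 7750.2 in vehicle Tcon and 8717, 7457, 8353 and 8450.4 in venetoclax Tcon. Its log2 change was 0.10 in Tcon (interval -0.07 to 0.27, limma adjusted p = 0.505). The Treg libraries were at 10831, 10035, 10199.7 and 10526 on vehicle and 11696, 10062, 10782 and 11235 on venetoclax, with a log2 change of 0.07 (interval -0.04 to 0.19, limma adjusted p = 0.377). The groups overlapped in both subsets. Of the Tapbp exons, 28.2% are shared with Gm19412 and Zbtb22.

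Erap1 (Entrez 80898, chromosome 13 from 74639573 to 74693205) encodes the aminopeptidase that trims peptides in the endoplasmic reticulum. In vehicle Tcon its libraries were at 5372, 4519, 5365 and 4284 (4885 ± 566), in 1 higher and 1 lower pair, and in venetoclax Tcon at 5397, 5163, 5346 and 5591 (5374 ± 176). Venetoclax replicates 1 and 4 lay above all vehicle libraries and the other two inside their range. The log2 change of 0.14 (interval -0.04 to 0.33) did not pass limma's test (adjusted p = 0.357). In Treg Erap1 was at 4705, 4101, 4839 and 4313 on vehicle and 4928, 4253, 4487 and 4744 on venetoclax, with a log2 change of 0.04 (interval -0.10 to 0.17, limma adjusted p = 0.718). Cast, on the opposite strand, overlaps 14.7% of the Erap1 exons.

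Nlrc5 (Entrez 434341, chromosome 8 from 94434335 to 94527272) encodes the transactivator that is recruited to class I promoters. It was the only one of the 9 with a call. In Treg the vehicle libraries were at 13578, 14975, 12809 and 14221 normalized counts (13896 ± 923, SD, n = 4) and the venetoclax libraries at 16819, 16429, 16555 and 15341 (16286 ± 650.4). Every venetoclax library lay above every vehicle library. Of all Treg genes, 12.0% had groups that did not overlap in this direction. The log2 change was 0.23 (SE 0.06, interval 0.11 to 0.35), a fold of 1.17 (1.08 to 1.28), with a limma adjusted p of 0.0138. In the authors' deposited table the log2 fold change of Nlrc5 in Treg was 0.21 with an adjusted p of 0.000951.

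The call for Nlrc5 in Treg was lost when the Y-linked level was a covariate (log2 change 0.17, limma adjusted p = 0.0649). It was also lost without venetoclax replicates 1 and 3 (log2 change 0.19, limma adjusted p = 0.157), where 2 venetoclax libraries remained.

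In Tcon the vehicle libraries of Nlrc5 were at 9904, 10229.6, 7143 and 10778 (9514 ± 1621) and the venetoclax libraries at 11923, 11705, 9663 and 11788 (11269.8 ± 1075). Replicate 3 was the lowest library of both groups, and venetoclax replicate 3 was below 3 of the 4 vehicle libraries. The point estimate, 0.26 (SE 0.13, interval -0.03 to 0.54), was similar in size to that of Treg, and it did not pass limma's test (adjusted p = 0.275). Without replicate 3 of both Tcon groups the log2 change was 0.20 and the limma adjusted p was 0.0303. Without vehicle replicate 3 alone the log2 change was 0.12, and it did not pass.

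Whether the change differed between Treg and Tcon was tested with an interaction term fitted to the 16 libraries. For Nlrc5 it was -0.03 (interval -0.34 to 0.29, limma adjusted p = 0.988), so the change was not shown to differ between Treg and Tcon. For the other 8 genes the difference in log2 change ran from -0.11 for Erap1 to 0.13 for H2-D1. Of the 9 genes 0 passed, at an unadjusted p under 0.05 also 0, against 1.3% of the 10774 genes in both tables. With the code shared by a Tcon and a Treg library as a block, 389 genes passed instead of 140, and 0 of them were among the 9. DESeq2 and edgeR on the recovered reads likewise called 0 of the 9.

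For the 8 genes other than Nlrc5, each 95% interval holds for 1 gene taken alone. The intervals come from the fit without the Y-linked covariate and do not hold jointly, so larger changes are not excluded. In Treg all of these intervals lay between folds of 0.879 and 1.16. In Tcon, where the libraries spread more, they lay between folds of 0.766 and 1.28. In neither subset did any of the 8 have groups that did not overlap, which 16.3% of Tcon genes (8.78% higher, 7.47% lower) and 22.7% of Treg genes had.

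Per length, the light chain and the classical heavy chains were the most abundant of the 9, and Erap1 the least. Levels are given as RPKM, recovered reads scaled to library size and to the exon length of GENCODE M21. Library size here is the sum of reads over the genes measured in that subset. In vehicle Treg B2m was at 3329 ± 219 RPKM, H2-K1 at 2812 ± 59.2, H2-D1 at 1064 ± 45.9 and H2-T23 at 389.7 ± 24.7 (SD, n = 4). Tap1 was at 147 ± 3.93 RPKM, Tapbp at 142 ± 5.39, Tap2 at 78.0 ± 2.98, Nlrc5 at 72.1 ± 5.45 and Erap1 at 33.2 ± 2.31.

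This order held in the other groups but for 2 exchanges in venetoclax Treg, where Tapbp (151 ± 9.59) stood before Tap1 (144 ± 4.59) and Nlrc5 (85.4 ± 2.73) before Tap2 (81.0 ± 1.59). Tap1 and Tapbp overlapped in all 4 groups, as did Tap2 and Nlrc5. B2m and H2-K1 overlapped in both Tcon groups and were apart in both Treg groups. Nlrc5 and Erap1 overlapped in vehicle Tcon, where Nlrc5 was at 49.7 ± 9.98 RPKM and Erap1 at 36.2 ± 3.42. All other neighbours in the order were apart.

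**Figure D3:**
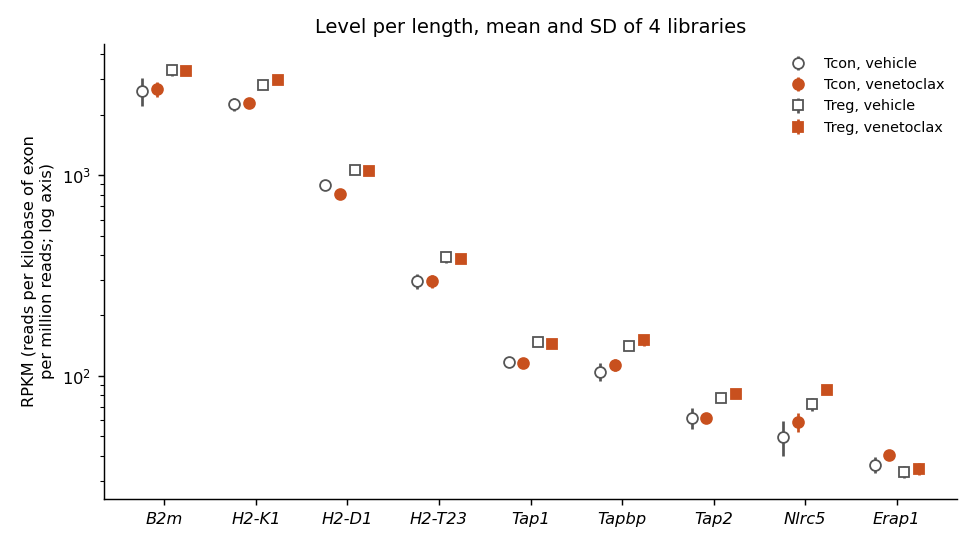
Level per length of the 9 genes on a log axis, in RPKM, as mean and SD of 4 libraries for each group. Squares (Treg) lie above circles (Tcon) for every gene but Erap1, which was at 33.2 in vehicle Treg and 36.2 in vehicle Tcon.

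These genes took a larger share of the reads in Treg than in Tcon. The 9 genes together took 1.01% of the reads in both Tcon groups, 1.26% in vehicle Treg and 1.30% in venetoclax Treg. These shares are of the reads on the genes measured in each subset, which were not the same set of genes. No test is given, since the tables were normalized separately, and a level set across them can carry differences in processing. In bulk samples such as these, fewer cells of a type and less RNA per cell cannot be told apart.

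On vehicle, all 4 Treg libraries lay above all 4 Tcon libraries in CPM, reads scaled to library size alone, for 7 of the 9 genes, against 24.5% of all genes. Nlrc5 had the highest ratio, 1.45, with 404 ± 81.1 CPM in Tcon and 586 ± 44.2 in Treg. The ratio was 1.35 for Tapbp, 1.31 for H2-T23, 1.26 for Tap1 and Tap2, 1.25 for H2-K1 and 1.20 for H2-D1. The libraries of B2m (ratio 1.27) and Erap1 (ratio 0.919) overlapped.

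On venetoclax, Treg was above Tcon in 8 of the 9 genes, against 30.2% of all genes. Erap1 was the only one with all Treg libraries below all Tcon libraries (196 ± 12.6 against 228 ± 9.53 CPM), as in 18.3% of all genes. Either way, 48.6% of all genes were apart on venetoclax and 36.5% on vehicle. The ratio of Nlrc5 was again 1.45.

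The 9 genes did not move as 1 block from library to library. Over the 36 pairs, Pearson's r of the log2 values had a median of 0.13 over the 8 Tcon libraries and 0.11 over the 8 Treg libraries. The medians have no value over all pairs of genes beside them, and that of Tcon includes replicate 3. These are descriptions: both treatments are in each set of libraries, and all values of a library share its size factor. In Tcon r ran from -0.96 (H2-D1 with Nlrc5) to 0.84 (B2m with H2-K1). Without replicate 3 of both Tcon groups, over 6 libraries, the first of these was -0.83 and the second 0.03, so the second rested on replicate 3. In Treg r ran from -0.76 (H2-D1 with Erap1) to 0.90 (B2m with H2-T23).

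H2-K1 and Nlrc5 had r = 0.82 in Treg and r = -0.71 in Tcon, and without replicate 3 of both Tcon groups r was 0.66 in Tcon. B2m and H2-T23 had r = 0.76 in Tcon, and 0.64 without replicate 3 of both groups.

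Among the genes whose pattern over the 16 libraries was most like the mean profile of the 9 were Gnb1 (r = 0.88), Irf9 (0.87), Oas1a (0.82) and Kdm5b (0.82), out of 9120 genes compared. Irf9 encodes a transcription factor of the interferon response, and Oas1a is an interferon-induced gene. Zfpl1, Pde1b and Phf1 were least like it, each with r = -0.84. Without replicate 3 of both Tcon groups, over 14 libraries, the r of Irf9 was 0.86 and that of Oas1a 0.89. The genes most like Nlrc5 alone were Inpp4a (0.97), Wipf1 (0.97), Plekhm1 (0.96), Gramd1b (0.96) and Fnbp1 (0.95). Values were centred and scaled within each table, and genes were ranked by r alone.

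Other genes of the pathway were taken from fixed lists and tested in the same limma fits, with p-values adjusted over all genes of a table. Of the other class I heavy chains, 11 were measured in Tcon and 10 in Treg, and 0 passed in either subset. At an unadjusted p under 0.05 there were 3 in Tcon and 4 in Treg, and DESeq2 called 1 in Tcon and 2 in Treg while edgeR called 0. The MAIT cell ligand gene Mr1 had a log2 change of -0.37 in Tcon (limma adjusted p = 0.0666, DESeq2 0.0184) and -0.21 in Treg (limma adjusted p = 0.0585, DESeq2 0.0409). H2-Q6 had a log2 change of 0.22 in Treg (limma adjusted p = 0.0544, DESeq2 0.0291) and H2-Q4 of -0.19 in Tcon (limma adjusted p = 0.185, DESeq2 0.0574). Of the 50-base coding windows of H2-D1, 111 also occurred in H2-Q6 and 67 in H2-Q4, so the assignment of their reads is uncertain too. The median change of the list was -0.02 in Tcon and 0.03 in Treg.

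**Figure D4:**
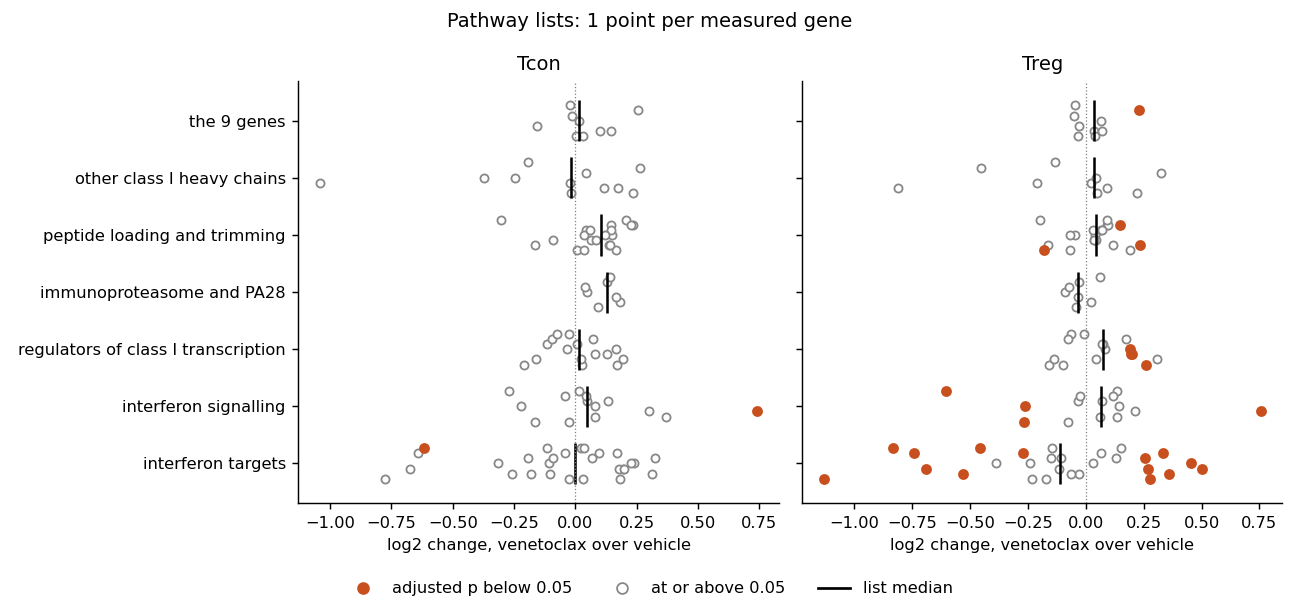
Log2 change of venetoclax over vehicle (x axis) for each measured gene of the 9 and of 6 pathway lists, in Tcon (left) and Treg (right), with filled points for a limma adjusted p below 0.05 and a black line at the list median. Filled points are few in Tcon (Ifngr1 and Ifit2) and lie on both sides of 0 among the interferon targets of Treg.

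The constitutive part of peptide loading and trimming was measured with 20 genes in each subset. In Tcon 0 passed, with 4 at an unadjusted p under 0.05, 1 by DESeq2 and 0 by edgeR, and the median was 0.10. Prkcsh, a glucosidase subunit, had the smallest p (log2 change 0.23, limma adjusted p = 0.0747), followed by Uggt1 (0.23, 0.107). In Treg 2 rose and 1 fell, 3 of 20 against 19.6% of all Treg genes, so the list was not called more often than genes at large. Npepps, a cytosolic aminopeptidase, rose by 0.23 (limma adjusted p = 0.00930), and Uggt1, which checks glycoprotein folding, rose by 0.15 (0.0340). Sec61b, a subunit of the translocon, fell by 0.18 (0.0367).

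The calls of Uggt1 and Sec61b were each lost in 9 of 19 alternatives, among them the Y-linked covariate. Npepps lost its call without venetoclax replicates 1 and 3 (limma adjusted p = 0.0981) and kept it with the covariate (0.0372).

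The immunoproteasome and its PA28 activator, which cut proteins into peptides suited to class I, had 7 measured genes, and 0 passed in either subset. In Tcon all 7 had positive point estimates, between 0.04 and 0.18, with Psmb10 the highest (limma adjusted p = 0.201) and 1 at an unadjusted p under 0.05. Psmb10 also had the smallest p, followed by Psme3 (log2 change 0.14, limma adjusted p = 0.232). In Treg the 7 lay between -0.09 and 0.06, with 0 at an unadjusted p under 0.05, and Psmb9 had the smallest p (log2 change -0.09, limma adjusted p = 0.244). Psme1 was next (log2 change -0.07, limma adjusted p = 0.425). In the test of the difference between subsets 0 of the 7 passed, also at an unadjusted p under 0.05. DESeq2 and edgeR called 0 of the 7 in either subset and in the difference.

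Regulators of class I transcription other than Nlrc5 comprised 16 measured genes. In Tcon 0 passed by limma and edgeR and 1 by DESeq2, with 3 at an unadjusted p under 0.05. Kat2b (log2 change 0.20, limma adjusted p = 0.0814) and Rfxank (-0.21, 0.126) had the smallest p. In Treg 4 rose and 0 fell, beside 10.7% of all genes called higher and 8.81% called lower. Irf2, an interferon regulatory factor, rose by 0.26 (limma adjusted p = 0.00320). Nfya, which encodes a subunit of NF-Y, rose by 0.19 (0.0162). Nfkb1 rose by 0.20 (0.0183), and Creb1, a factor that binds CRE elements, rose by 0.20 (0.0185).

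All 4 lost their call without venetoclax replicates 1 and 3, and Nfya and Creb1 also lost it with the Y-linked covariate. Leaving out 1 library in turn, Irf2 lost its call in 0 of 8 fits, Nfya in 2, and Nfkb1 and Creb1 in 3 each. In each of the 4 all venetoclax libraries lay above all vehicle libraries, as in 12.0% of all Treg genes. Rfxank had all of them below, as in 10.7% of all Treg genes, without a call (log2 change -0.16, limma adjusted p = 0.104).

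Among 14 interferon signalling genes, Ifngr1, the ligand-binding chain of the interferon gamma receptor, rose in both subsets. Vehicle Tcon libraries lay between 2683 and 3104 normalized counts and venetoclax Tcon libraries between 3987 and 5913, a log2 change of 0.74 (limma adjusted p = 0.00366). In Treg the ranges were 5736 to 7461 and 9454 to 11613, with a log2 change of 0.76 (limma adjusted p = 0.000124). In Tcon 1 of the 14 rose and 0 fell, against 3.92% of all Tcon genes higher and 2.99% lower. In Treg 1 rose and 3 fell, against 10.7% higher and 8.81% lower. Those 3 were Usp18, which dampens type I interferon signalling (-0.60, limma adjusted p = 0.000224), Ifnar1, a chain of the type I receptor (-0.26, 0.00474), and Ifngr2, the other chain of the gamma receptor (-0.26, 0.0127). Each of the 4 Treg calls held without venetoclax replicates 1 and 3 and with the Y-linked covariate.

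Interferon targets other than the 9 genes moved in both directions in Treg. Of 28 measured, 7 rose and 7 fell there, against 10.7% of all Treg genes higher and 8.81% lower, with a median of -0.11. In Tcon 0 rose and 1 fell by limma, against 3.92% of all Tcon genes higher and 2.99% lower, with a median of 0.00. In Tcon edgeR called 1 of the 28 and DESeq2 6, and 8 had an unadjusted limma p under 0.05. The guanylate-binding proteins Gbp3 (log2 change 0.46, limma adjusted p = 0.000518), Gbp5 (0.33, 0.00116), Gbp7 and Gbp2 rose in Treg, with the GTPase gene Irgm2, Parp14 and Stat3. Gbp3 lay between 3091 and 3644 normalized counts in vehicle Treg and between 4559 and 5265 in venetoclax Treg. The genes that fell were Ifit1, Ifit2, Ifit3, Oas2, Irf7, Rsad2 and Xaf1, most of which are known as type I interferon targets. Without venetoclax replicates 1 and 3 the calls of Irgm2, Gbp2, Xaf1 and Rsad2 were lost, and with the Y-linked covariate those of Xaf1, Rsad2 and Ifit1. Leaving out 1 library in turn, Rsad2 lost its call in 5 of 8 fits, Ifit1 in 4 and Gbp2 in 3.

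Ifit3 had a log2 change of -1.13 in Treg (limma adjusted p = 0.00355), though its highest venetoclax library, 553, was above its lowest vehicle library, 541. Ifit2 fell in both subsets, by 0.62 in Tcon (limma adjusted p = 0.00227, and 0.0604 without venetoclax replicates 1 and 3) and by 0.46 in Treg (0.000815). In the test of the difference between subsets, 0 genes of the 6 pathway lists passed with limma, edgeR or DESeq2, and 4 interferon targets, 2 other heavy chains, 1 loading and 1 signalling gene had an unadjusted limma p under 0.05. With the shared code as a block, limma called 2 interferon targets, Oas2 (a difference in log2 change of -0.72, Treg minus Tcon, adjusted p = 0.0236) and Irgm2 (0.31, adjusted p = 0.0361). For the other genes of these lists, a call in Treg that is missing in Tcon does not show a difference between them. These lists were assembled with earlier results of the same libraries known, so their directions are descriptions.

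Summed levels of genes that mark other cell types are given beside these results. Of 9 erythroid and platelet markers, 3 were measured in Tcon (55.9 to 125 normalized counts on vehicle, 46.4 to 249 on venetoclax). In Treg 5 were measured (97.3 to 603 and 65.7 to 1394). By limma 0 of them passed in either subset. Of 10 B cell markers, 3 were measured in Tcon, with sums between 139 and 184 normalized counts on vehicle and 151 and 288 on venetoclax. In Treg 4 were measured, at 509 to 581 and 537 to 683. Of these, Cd22 rose in Treg (log2 change 0.60, limma adjusted p = 0.0199), though its libraries overlapped (92.5 to 145 normalized counts on vehicle, 143 to 200.5 on venetoclax). Its call was lost in 4 of 8 fits without 1 library and with the Y-linked covariate (adjusted p = 0.0775). Of 13 dendritic and myeloid markers, 8 were measured in Tcon (217 to 306 on vehicle, 210.3 to 475 on venetoclax). In Treg 4 were measured (81.8 to 134 and 72.2 to 230.4). Of 8 CD8 T cell and natural killer cell markers, 5 were measured in each subset. Their sums were 1789 to 2007 on vehicle and 1741 to 2054 on venetoclax in Tcon, and 704 to 867 and 605 to 697 in Treg. Those of Treg did not overlap, as in 10.7% of single Treg genes in this direction. By limma 0 of the 5 passed in either subset, with 4 at an unadjusted p under 0.05 in Treg and 1 in Tcon. DESeq2 called 1 in each subset. The MHC class II genes, 9 of 9 measured, summed to 2339 to 2765 on vehicle and 2079 to 2424 on venetoclax in Tcon, and to 4209 to 4751 and 4416 to 4653 in Treg. The class II sums of the 2 treatments overlapped in both subsets. The median log2 change of these genes was -0.06 in Tcon and 0.53 in Treg, where 7 of 9 point estimates were positive. In Treg 1 of 9 rose and 1 fell, against 10.7% of all Treg genes higher and 8.81% lower. In Tcon 0 rose and 1 fell, against 3.92% of all Tcon genes higher and 2.99% lower. Cd74, the invariant chain of class II, rose in Treg (log2 change 0.53, limma adjusted p = 0.0101, and 0.0598 without venetoclax replicates 1 and 3), and H2-Ob fell in both subsets. H2-K1 alone was at or above 84309 normalized counts in every library, but the marker sums do not give the class I reads that such cells added.

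The summed level of Treg identity markers was higher on venetoclax in both subsets. In Tcon, where 7 of 8 were measured, the sum lay between 3630 and 4272 normalized counts on vehicle and between 4482 and 5654 on venetoclax. In Treg (8 of 8 measured) it lay between 103551 and 112687 on vehicle and between 115595 and 124735 on venetoclax. The groups of sums did not overlap in either subset. Of single genes, 8.78% in Tcon and 12.0% in Treg had groups that did not overlap in this direction. In Tcon 3 of 7 rose (Gpr83, Il2ra and Tnfrsf18), against 3.92% of all Tcon genes. In Treg 3 of 8 rose (Gpr83, Nrp1 and Ikzf2), against 10.7% of all Treg genes, with 0 lower in either subset. With the Y-linked covariate 2 rose in each subset, beside 211 of 11171 genes called higher in Tcon and 902 of 11067 in Treg. In the test of the difference between subsets 2 of 7 passed, both with a lower change in Treg than in Tcon, against 0.965% of genes. Foxp3 itself had a log2 change of 0.07 in Tcon (limma adjusted p = 0.659) and 0.11 in Treg (limma adjusted p = 0.202). The part of other cell types and of these markers in the change of Nlrc5 was not tested.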

How the data were processed

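Sorted Tcon and Treg libraries, 4 per treatment and subset, were compared. Reads were handled with HISAT2 and SAMtools and mapped to mm10, per the submitters' processing notes. The sources used here do not give the versions, the read counter, its annotation or its strand setting. The library columns are a normalized signal, which the authors made by dividing read counts by 1 size factor per library. Divided by the smallest step of its column, every deposited value came out whole (100%, to within 0.01), which gave back the reads. A further column holds the authors' mean of this signal. Per the file headers, the tables also give the authors' log2 fold change with its standard error and their p-value, unadjusted and adjusted. Repeated lines (40 in Tcon, 43 in Treg) were dropped, 18 symbols turned into dates in Treg were restored by Entrez identifier, and 0 sample columns were left unused.

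Values were tested as log2(normalized count + 1), with a pseudocount of 1, by limma 3.58.1 in R 4.3.3 (empirical Bayes, mean-dependent prior, two-sided). The Benjamini-Hochberg adjustment covered every gene of a table, and calls were made under 0.05. The design foresaw limma for normalized values, and edgeR 4.0.16 and DESeq2 1.42.0 on the recovered reads served as alternatives. Fold changes are on the log2(value + 1) scale. The subset difference was the interaction over 16 libraries. The same-numbered Tcon and Treg libraries of a treatment share a code in the labels, and their deviations from the group means correlated in every pair (0.29, 0.55, 0.39 and 0.49 on vehicle; 0.20, 0.28, 0.34 and 0.45 on venetoclax), so they were taken as paired in the blocked fit. Libraries of a group differed by more than counting noise (a chi-square of 6.08 or more for each degree of freedom).

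The 9 genes and all lists were chosen with earlier results of these data known. Per subset, each pathway list gives its genes past the threshold (up to 6, by smallest p) or else the 2 with the smallest p. The text names all 9 genes. It also names the genes most and least like the mean profile and most like Nlrc5, among genes with a mean of at least 50, and 1 gene that this rule names is not reported here. The interferon targets that passed beyond the first 6, and Oas2 and Irgm2 in the subset difference, fall outside this rule. So do Rfxank in Treg, Cd22, H2-Ob, Cd74, Foxp3 and the Treg markers that rose. All of these were chosen after their values were seen. Sequences and coordinates are RefSeq's (GRCm38.p6, 1-based). Exon lengths and coding sequences are from GENCODE M21. Sequence identity came from Biopython 1.88 alignments in Python 3.11.15. The code was tested on simulated data. Alternatives were other pseudocounts, a filter on low values, other scalings, edgeR, DESeq2, limma-voom, a block, a Y-linked covariate and leaving out libraries. The within-library ratios and the motif spacing were added after the data were seen.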

Additional observations from a re-analysis of the deposited data

Results flagged for a closer look

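In the venetoclax Tcon group 2 of the 9 genes had 1 library far from the other three. For H2-D1 the highest library, replicate 3, was at 46284 normalized counts, and its gap to the next library took 0.885 of the range of the group. For Nlrc5 the lowest library, also replicate 3, was at 9663, with a gap of 0.903 of the range. Both gaps exceed Dixon's limit for 4 values. In all, 36 groups of 4 libraries were examined, and chance alone flags about 1 in 20 such groups. Replicate 3 of both Tcon groups also stood apart over all genes.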

How the results depend on the processing

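No member changed the direction of a call in any alternative, and the 8 genes other than Nlrc5 stayed without a call in every one, though point estimates near 0 changed sign for up to 3 of the 9. The number of the 9 called in Tcon was 0 and became 1 (Nlrc5) with the replicate block and without replicate 3 of both Tcon groups. In Treg it was 1 and became 0 with the Y-linked covariate and without venetoclax replicates 1 and 3. The Y-linked level differs between the treatment groups, so the covariate takes part of the treatment contrast with it. Leaving out 1 library in turn, the limma adjusted p of Nlrc5 in Treg ran from 0.00647 to 0.0435, and in Tcon from 0.194 to 0.496.

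Over all genes, Tcon calls (772) ran from 306 to 1244 without 1 library (306 without venetoclax replicate 1, 1244 without vehicle replicate 3). They were 1364 with DESeq2, 326 with the Y-linked covariate, 1443 without replicate 3 of both groups and 116 without venetoclax replicates 1 and 3. Treg calls (2164) ran from 1327 to 2198 without 1 library and were 614 without venetoclax replicates 1 and 3. Upper quartile scaling moved the share of higher calls in Treg from 54.9% to 41.8%, and Nlrc5 stayed called (log2 change 0.20). Calls of the subset difference (140) ran from 58 to 203 without 1 library. They were 295 with DESeq2, 389 with the replicate block, 214 without replicate 3 of both Tcon groups and 4 without venetoclax replicates 1 and 3. Fewer libraries were tested where libraries were left out. The cause of the other shifts was not tested.

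Within a subset the replicate numbers were not taken to pair vehicle with venetoclax libraries, and whether they do is not settled here. The correlations of same-numbered deviations were 0.07, 0.31, 0.43 and 0.25 in Tcon and -0.01, 0.24, 0.18 and 0.28 in Treg, and the labels name no shared animal. Not every library correlated best with its own number. The replicate block gave 1880 calls in Tcon, with an adjusted p of 0.0167 for Nlrc5, and 2467 in Treg, with 0.0142 for Nlrc5.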
